A study of Mus musculus with 2 samples.

Results

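Messenger RNAs of effector cytokines were examined in extracellular vesicles released by mouse CTL, or cytotoxic T lymphocytes, which kill infected and tumour cells. The genes were Ifng, Tnf, Lta, Ltb, Tnfsf14, Il2, Il3, Csf2, Il10 and Tgfb1. They were taken by gene symbol, and each had 1 probe, so the set is 10 probes of the 23473 on the array. All 10 had a value on both arrays. Culture medium was collected after 7 days, concentrated by ultrafiltration with a 750 kDa cutoff and separated on a DEAE column, a positively charged resin that holds negatively charged particles until the salt rises. One group is the fraction eluted with 0.5 M NaCl and the other the fraction eluted with 0.3 M NaCl, with 1 Cy5 array each. The sources used here do not give the strain or age of the mice, how the cells were stimulated, or how many preparations were pooled.

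With 1 array per fraction there was no test and no replicate error, and every difference describes these 2 arrays. Levels are given as the deposited linear intensity of the probe. A difference is log2 at 0.5 M minus log2 at 0.3 M after each array was centred on its median over the probes with a value on both. At 0.5 M this median was 26 and at 0.3 M it was 32, and centring took out a shift of -0.30. Intensity depends on the probe as well as on the RNA, so levels of different genes are not set against each other. The share of probes with a value was 71.3% at 0.5 M and 80.8% at 0.3 M. The array carried 8 CTL marker genes, all with a value on both arrays, and 6 lay above 0 and 2 below after centring, with a median of 0.52. Over the 7 that passed the level filter it was also 0.52, but 0.22 as deposited, 0.21 with quantile normalization and 0.15 with loess. Below 0 after centring were the coreceptor chain Cd8a (2463 at 0.5 M and 3677 at 0.3 M, -0.28, and -0.81 with loess) and Prf1 (-0.04). Prf1 passed the filter only through its 0.3 M value. Cd3g (0.93) and Cd8b1 (0.87) had the highest differences. The T cell receptor chain Cd3e was dim, at 14 and 12.

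Cytokines carry the orders of a T cell to its neighbours. Interferon gamma, the product of Ifng, and the tumour necrosis factor (TNF) family, which includes Tnf, Lta, Ltb and Tnfsf14, act on infected cells, macrophages and the tissue around them. Il2, Il3 and Csf2 encode growth factors for lymphocytes and myeloid cells, and Il10 and Tgfb1 encode cytokines known for restraining immune responses. Most of these messages are made in bursts after the T cell receptor is engaged and are then destroyed quickly by proteins that bind elements in the message. Setting the fractions side by side asks whether vesicles that leave the column at different salt hold different messages.

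Ifng read 238 at 0.5 M and 468 at 0.3 M, the only member above the 95th percentile of probes for olfactory and vomeronasal receptors. That percentile was 150 at 0.5 M and 144 at 0.3 M, and the other members were dim, all under it. After centring, 4 members lay above 0 and 6 below (3 and 7 as deposited), with differences from -0.78 for Tgfb1 to 0.88 for Il2. Of the 10 members, 0 were 2-fold or more higher at 0.5 M and 0 were 2-fold or more lower. Among all 13735 genes measured on both arrays, 7.87% were past 2-fold, 5.10% higher and 2.77% lower, so a count of 0 among 10 genes is near the background. The median difference of the 10 members was -0.04, against 0.05 over all measured genes.

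**Figure D1:**
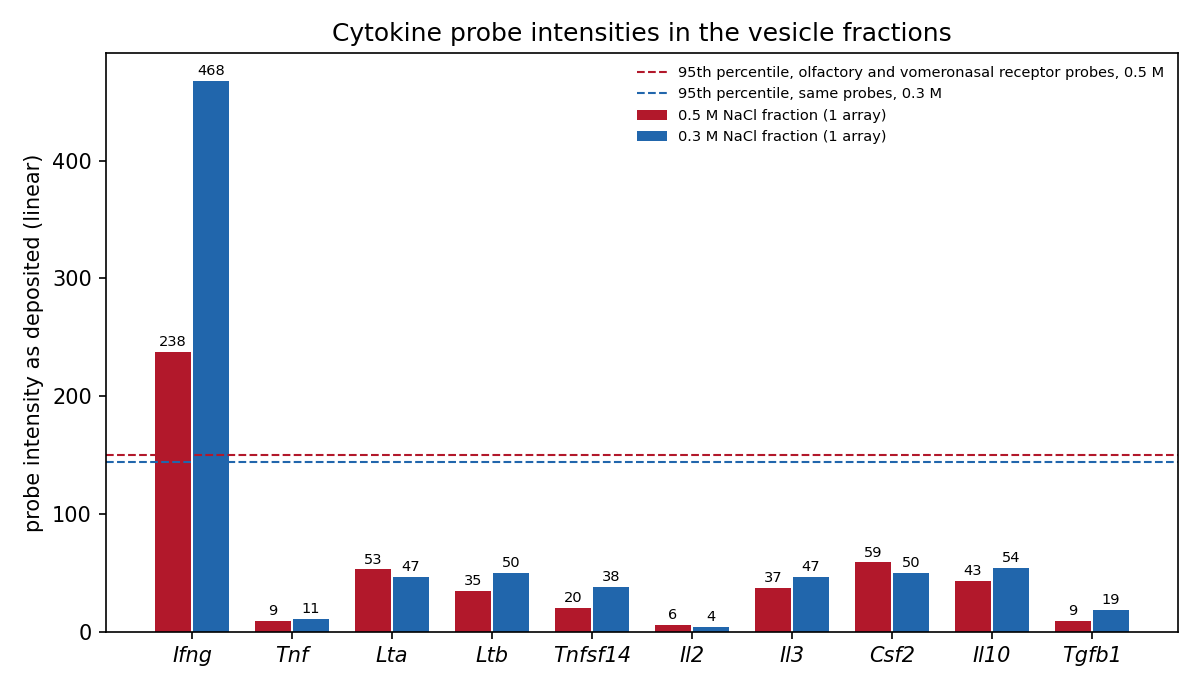
Deposited probe intensity (linear axis) of each cytokine gene in the 0.5 M NaCl fraction (red) and the 0.3 M NaCl fraction (blue), 1 array each, with dashed lines at the 95th percentile of olfactory and vomeronasal receptor probes (150 at 0.5 M and 144 at 0.3 M). Ifng, at 238 and 468, is the only member above those lines, and heights should be compared within a gene, not between genes.

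Ifng encodes the interferon that makes macrophages microbicidal and raises antigen presentation in its target cells. Its probe read 238 at 0.5 M and 468 at 0.3 M, at percentile 90.1 of the 0.5 M array and 94.4 of the 0.3 M array. The value was thus lower at 0.5 M, by a difference of -0.68, or 1.60-fold lower. Rounding to whole numbers could move that difference only between -0.68 and -0.67. Among the 500 genes closest to Ifng in mean level on these arrays, 7.0% had a lower difference, and the central 80% of them ran from -0.57 to 0.89 around a median of 0.23. Ifng was therefore below the bulk of genes of its brightness, though short of 2-fold. It stayed below 0 in every scaling, at -0.98 as deposited, -0.85 with quantile normalization and -0.88 with a loess trend removed.

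The start of Ifng is shown because Ifng is the only member above the 95th percentile of receptor probes on both arrays. The window runs from 250 bases before to 50 after the start of the gene at chr10:118440796-118441095, plus strand, in RefSeq on GRCm38.p6. Capitals mark 2 kinds of letters found by search, GGAAA (the core bound by NFAT factors, which T cell receptor signals send to the nucleus) on either strand and the TATA box letters TATAAA on either strand.
Ifng: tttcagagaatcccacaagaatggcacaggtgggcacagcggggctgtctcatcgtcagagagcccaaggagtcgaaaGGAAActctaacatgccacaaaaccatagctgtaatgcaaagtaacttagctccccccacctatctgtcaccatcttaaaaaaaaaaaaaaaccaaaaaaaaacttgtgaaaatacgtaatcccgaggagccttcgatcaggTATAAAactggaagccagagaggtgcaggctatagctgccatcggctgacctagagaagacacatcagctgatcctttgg
The window held 1 GGAAA and 1 TATAAA. Windows of the same length were at hand for 9 of the 10 members, all but Il10. GGAAA or its reverse TTTCC stood in 8 of the 9, all but Tgfb1, and in 61.3% of 27018 gene windows. TATAAA or TTTATA stood in 4 of the 9, namely Ifng, Il2, Lta and Tnf, against 14.2% of all windows. The AP-1 letters TGANTCA stood in 1, Tnfsf14, against 7.94%, and the T-box letters AGGTGTGA or their reverse in 0, against 1.27%. These are matches of letters in a window and not binding sites.

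A difference such as that of Ifng was shared by many genes. Of the 1018 other kept genes with an intensity at 0.3 M from 0.5 to 2 times that of Ifng, 96 (9.43%) had a difference at or below that of Ifng and 28 lay within 0.05 of it. A gene was kept if either array had it at the median of measured genes or brighter, as for 7446 genes. The closest in difference were Asic5, an ion channel of the acid-sensing family, at 345 at 0.5 M and 678 at 0.3 M, the phospholipase Pla2g4c at 198 and 388, and the membrane protein Tm9sf2 at 232 and 454. Their differences were -0.68, -0.67 and -0.67. With 2 arrays, likeness means a near-equal single difference.

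The 4 TNF family members did not share a direction. Tnf, the inflammatory cytokine that gives the family its name, read 9 at 0.5 M and 11 at 0.3 M. Its difference of 0.01, with a rounding range of -0.14 to 0.16, was -0.29 as deposited. Lta, whose product lymphotoxin alpha is secreted or joined to the Ltb product on the cell surface, read 53 at 0.5 M and 47 at 0.3 M, a difference of 0.47. Ltb, the membrane partner of Lta, read 35 at 0.5 M and 50 at 0.3 M, a difference of -0.22. Lta was thus higher and Ltb lower at 0.5 M, both by less than 0.55, the SD of the difference among probes of the same gene. Of the 500 genes of like level, 86.4% had a lower difference than Lta and 30.4% a lower one than Ltb. Tnfsf14, also called LIGHT, a ligand of the lymphotoxin beta receptor and of Tnfrsf14, read 20 at 0.5 M and 38 at 0.3 M. Its difference was -0.63, or 1.54-fold lower, and 7.2% of genes of like level lay below it. Tnfsf14 entered the kept genes only through its 0.3 M value, where it was the brighter.

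Tnf, Lta and Ltb are neighbours on mouse chromosome 17, and Csf2 and Il3 are neighbours on chromosome 11 in the RefSeq order of protein-coding genes. In the first group the differences were 0.01, 0.47 and -0.22, and in the second they were 0.54 for Csf2 and -0.05 for Il3. Each was smaller in size than 0.55, the SD of the difference among probes of the same gene. A gap between neighbours carries the probe spread of both genes, and each gene had 1 probe and 1 array per fraction. These values therefore cannot show whether neighbours differ. The windows at the starts of Csf2 (chr11:54249850-54250149, minus strand) and Il3 (chr11:54267230-54267529, minus strand) are shown to set this pair side by side, with GGAAA or TTTCC in capitals.
Csf2: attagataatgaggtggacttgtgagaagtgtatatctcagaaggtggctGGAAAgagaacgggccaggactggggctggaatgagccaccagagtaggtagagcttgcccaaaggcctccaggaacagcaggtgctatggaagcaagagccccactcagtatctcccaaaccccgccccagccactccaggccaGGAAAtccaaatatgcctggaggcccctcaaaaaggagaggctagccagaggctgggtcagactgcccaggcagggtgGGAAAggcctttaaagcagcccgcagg
Il3: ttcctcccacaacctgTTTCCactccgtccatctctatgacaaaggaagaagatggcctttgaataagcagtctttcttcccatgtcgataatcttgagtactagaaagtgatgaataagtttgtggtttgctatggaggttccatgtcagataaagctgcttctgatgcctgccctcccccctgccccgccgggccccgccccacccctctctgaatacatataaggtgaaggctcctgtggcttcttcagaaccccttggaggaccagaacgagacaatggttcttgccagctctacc
The Csf2 window held 3 such matches and the Il3 window 1, and neither held TATAAA or its reverse.

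The growth factor genes were dim in both fractions by the receptor-probe measure. Csf2 (percentiles 71.9 at 0.5 M and 68.2 at 0.3 M) and Il3 (61.2 and 66.8) still lay above the median of each array. Il2 lay near the bottom (5.47 and 1.30). Csf2, which encodes GM-CSF, a growth factor for granulocytes and macrophages, read 59 at 0.5 M and 50 at 0.3 M. Its difference of 0.54, or 1.45-fold higher, lay above that of 85.0% of the 500 genes of like level. Il3, a growth factor for blood progenitors and mast cells, read 37 at 0.5 M and 47 at 0.3 M, a difference of -0.05. Il2, the main growth factor of T cells, read 6 at 0.5 M and 4 at 0.3 M, and 4 was the lowest intensity on the 0.3 M array. Its difference of 0.88 was the highest of the members, but rounding alone leaves it anywhere between 0.59 and 1.19, and adding 16 to each intensity brought it to 0.33.

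Both restraining cytokines gave weak readings by the same measure, Il10 at percentiles 65.2 at 0.5 M and 70.0 at 0.3 M and Tgfb1 at 16.8 and 41.9. Il10, which damps macrophages and dendritic cells, read 43 at 0.5 M and 54 at 0.3 M, a difference of -0.03. Tgfb1, which encodes transforming growth factor beta 1 and is made by many cell types, read 9 at 0.5 M and 19 at 0.3 M. Its difference of -0.78 was the lowest of the members, with a rounding range of -0.90 to -0.66, and 6.0% of genes of like level lay below it. It was -1.08 as deposited, past 2-fold, but -0.29 with 16 added to each intensity.

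**Figure D2:**
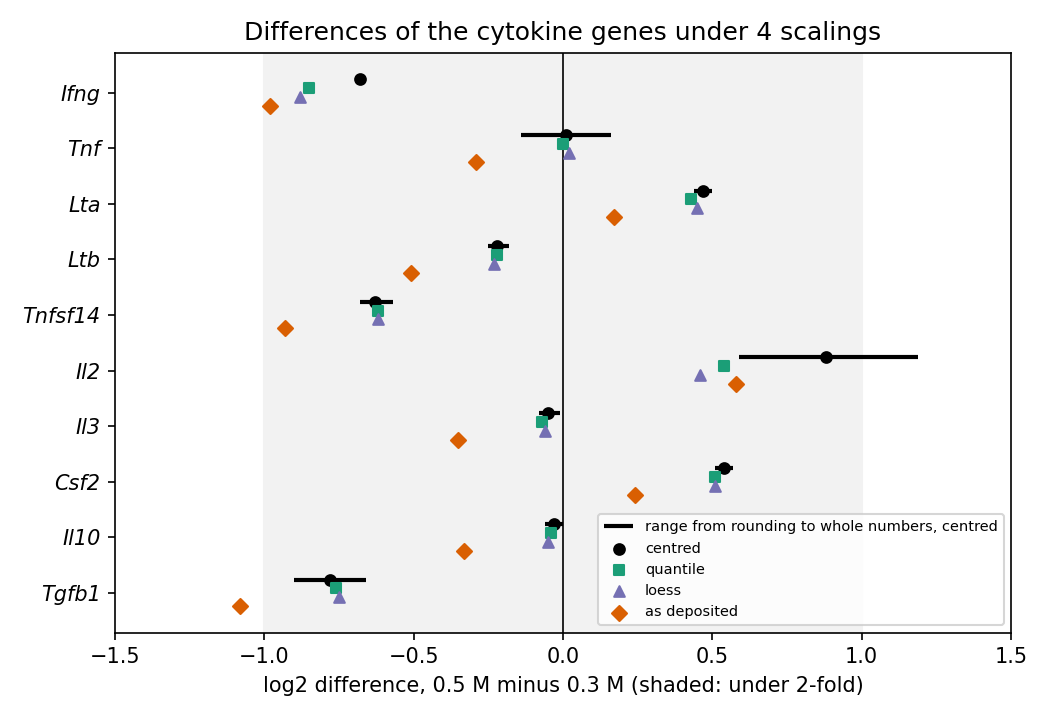
Log2 difference (0.5 M minus 0.3 M) of each cytokine gene after centring, quantile normalization, loess and as deposited, with a black bar for the range left by rounding intensities to whole numbers in the centred values. Tgfb1 as deposited (-1.08) is the only point outside the shaded 2-fold zone, and the rounding bar of Il2 runs from 0.59 to 1.19.

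The dimness of the members sets how far these differences can be read. The array carried 1187 probes of olfactory and vomeronasal receptors, which are made in sensory neurons, and 597 had a value at 0.5 M and 758 at 0.3 M. Their medians were 14.0 and 13.5 and their upper quartiles 30 and 31. Of the receptor probes with a value, 3.18% were at or above the Ifng intensity at 0.5 M and 1.32% at 0.3 M. For Csf2 the shares were 12.9% and 15.7%, for Lta 14.6% and 16.8%, and for Il10 18.6% and 14.6%. For Il3 they were 20.8% and 16.8%, for Ltb 22.1% and 15.7%, and for Tnfsf14 37.4% and 21.1%. For Tnf they were 69.8% and 60.0%. Tgfb1 and Il2, at the ends of the range of differences, had shares of 69.8% and 38.8% and of 92.0% and 100%. Ifng alone lay above the 95th percentile of these probes on both arrays. Whether any member, Ifng included, stood above the background of its own probe was not tested, since no background values are among the data used here.

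**Figure D3:**
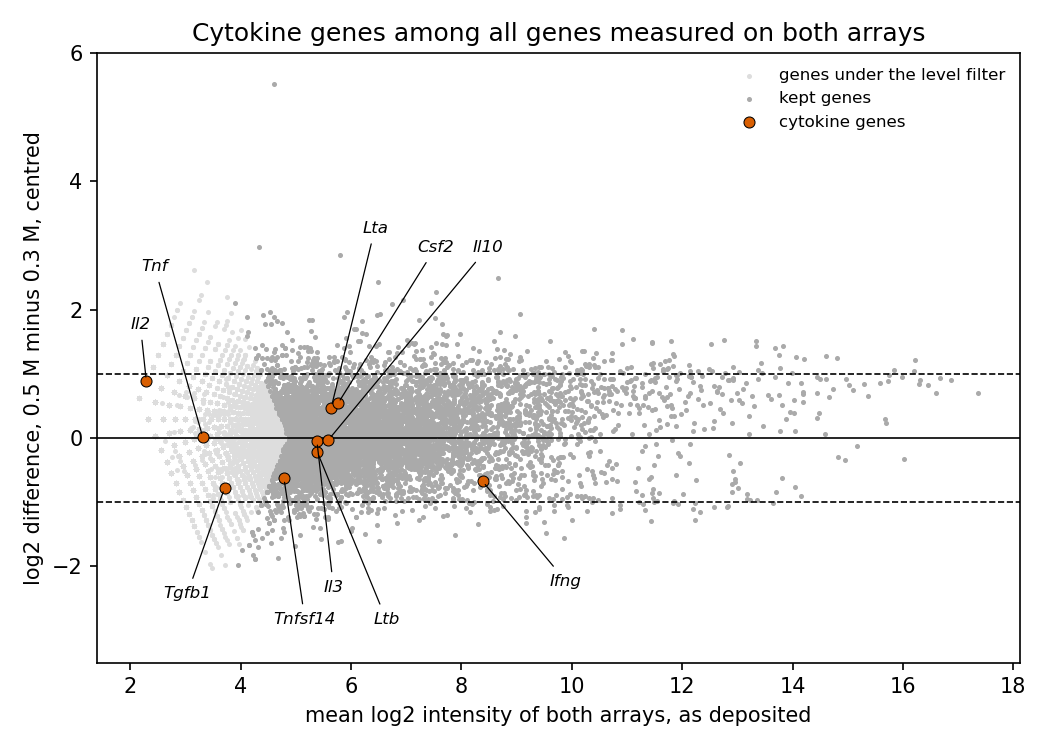
Log2 difference (0.5 M minus 0.3 M, centred) against the mean log2 intensity of both arrays for all 13735 genes measured on both, with kept genes in darker grey and the cytokine genes in orange; dashed lines mark 2-fold. All 10 members lie between the dashed lines, 7 among kept genes, and Ifng lies apart from the others to the right.

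The level filter kept 7 of the 10 members and left out Tnf, Il2 and Tgfb1. The 7 had a median difference of -0.05, against 0.08 over the 7446 kept genes, of which 7.59% were past 2-fold, 5.24% higher and 2.35% lower. As deposited these medians were -0.35 and -0.22. Of all 10 members, 7 lay within the central 80% of the 500 genes of like level, and Ifng, Tnfsf14 and Tgfb1 lay below it. No member had a second probe. Among 358 kept genes that did, probes of the same gene varied in their difference with an SD of 0.55, close to the SD of 0.56 over all kept genes, and no member but Ifng, Tnfsf14, Tgfb1 and Il2 differed from 0 by more than that.

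Receptors of these cytokines lay on both sides of 0. The array carried 17 of the 18 receptor genes looked for, and 12 were kept. Past 2-fold were 0 of these in either direction, beside 7.59% of all kept genes. The median was -0.07 (-0.06 over the 13 measured on both arrays), and differences of the kept receptors ran from -0.50 to 0.46. Tgfbr3, under the filter at 12 at 0.5 M and 9 at 0.3 M, was at 0.71. The interferon gamma receptor chains Ifngr1 (70 at 0.5 M and 91 at 0.3 M) and Ifngr2 (111 and 130) had differences of -0.08 and 0.07. The largest differences belonged to Csf2ra, a chain of the GM-CSF receptor (23 at 0.5 M and 40 at 0.3 M, -0.50, kept only through its brighter 0.3 M value), Il2rb, the signalling chain of the IL-2 receptor (117 and 105, 0.46), Tgfbr2 (45 and 70, -0.34) and Il10rb (68 and 67, 0.32).

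Other T cell cytokines were mostly dim. Of 14 on the array, 4 were kept, with a median of -0.31, against -0.08 over the 12 measured on both arrays. Mif, an abundant inflammatory cytokine also made outside the immune system, read 20876 at 0.5 M and 12691 at 0.3 M, a difference of 1.02. It was the only one of the 4 kept that was past 2-fold, beside 7.59% of all kept genes. Mif was at 0.40 with quantile normalization, 0.30 with loess and 0.72 as deposited. The others kept were Osm, a cytokine of the IL-6 family (94 at 0.5 M and 171 at 0.3 M, -0.56), the macrophage growth factor Csf1 (165 and 273, -0.43) and Il17a (90 and 126, -0.19). Of 14 other TNF family ligands, 4 were kept and 0 of these were past 2-fold, beside 7.59% of all kept genes. Their median was -0.10, whereas the median over the 8 measured on both arrays was 0.11. The 4 kept were Tnfsf8 (-0.42), Tnfsf12 (-0.38), Tnfsf15 (0.26) and Tnfsf11 (0.17). Fasl, the death ligand of CTL, was under the filter at 22 at 0.5 M and 28 at 0.3 M.

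Genes that free TNF from the membrane or hold or activate latent TGF-beta, listed with the TGF-beta ligands Tgfb2 and Tgfb3, lay on both sides of 0. Of 14 on the array, 10 were measured on both arrays, 5 above 0 and 5 below, with a median of 0.03. The 4 that were kept had 0 past 2-fold, beside 7.59% of all kept genes, and a median of -0.21, or -0.51 as deposited. They were Itgb8, an integrin chain that activates TGF-beta (21 at 0.5 M and 38 at 0.3 M, -0.56, kept only through 0.3 M), Nrros, which holds latent TGF-beta on myeloid cells (292 and 422, -0.23), Tgfb2 (38 and 53, -0.18) and the protease Furin (78 and 97, -0.01).

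Transcription factors of cytokine genes lay on both sides of 0. Of 15 on the array, 11 were kept, with 0 past 2-fold, beside 7.59% of all kept genes. Their median was 0.04, which was -0.02 with quantile normalization and -0.26 as deposited. Tbx21, the T-bet factor that drives Ifng, read 25174 at 0.5 M and 39433 at 0.3 M. Its difference of -0.35 became -0.91 with quantile normalization and -1.15 with loess, past 2-fold. Batf, an AP-1 family factor, read 206 at 0.5 M and 144 at 0.3 M (0.82). Eomes, a relative of Tbx21 (60 and 54, 0.45), and Irf1, itself induced by interferon gamma (228 and 207, 0.44), were also above 0.

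Proteins that bind cytokine messages lay on both sides of 0. Of 12 on the array, 8 were kept, 1 of them past 2-fold higher and 1 past 2-fold lower, beside 5.24% and 2.35% of kept genes. Zfp36, the lower one, was kept only through its brighter 0.3 M value, and Zc3h12a and Zc3h12d only through their 0.5 M values. Their median of 0.12 was -0.18 as deposited. Zfp36, known as tristetraprolin, which binds AU-rich elements and speeds the decay of Tnf and other messages, read 13 at 0.5 M and 33 at 0.3 M, a difference of -1.04. Its relative Zfp36l2 read 392 at 0.5 M and 208 at 0.3 M, a difference of 1.21. These 2 relatives kept opposite signs in every scaling, from -1.34 to -1.03 for Zfp36 and from 0.91 to 1.21 for Zfp36l2. Zfp36l1, another relative (70 at 0.5 M and 77 at 0.3 M), lay between them at 0.16, or -0.14 as deposited. With 16 added to each intensity the dim Zfp36 was at -0.56 and Zfp36l2 at 1.06. Zc3h12d (30 at 0.5 M and 26 at 0.3 M, 0.51) and Zc3h12a, also called Regnase-1 (28 and 25, 0.46), which belong to a family of RNA-cutting proteins, were dim.

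Genes that respond to interferon gamma gave 14 kept of 19 on the array, with a median of 0.13 that was -0.17 as deposited. Past 2-fold were 2 higher and 1 lower, beside 5.24% and 2.35% of kept genes, but 1 higher and 2 lower as deposited, with quantile normalization and with loess. Over all 7446 kept genes the counts also moved towards lower, from 390 higher and 175 lower to 121 and 579 as deposited. They were 242 and 288 with quantile normalization and 231 and 293 with loess. Cd274, Ciita and Tap1 were kept only through their 0.5 M values and Gbp3 only through its brighter 0.3 M value. Over the 17 genes measured on both arrays the median was 0.06, with 9 above 0 and 8 below. Psmb9, an immunoproteasome subunit, read 1374 at 0.5 M and 733 at 0.3 M, a difference of 1.21 that was 0.91 as deposited, 0.89 with quantile normalization and 0.82 with loess. Ciita, the activator of MHC class II genes, read 38 at 0.5 M and 19 at 0.3 M (1.30, and 0.82 with 16 added). The guanylate-binding protein Gbp3 read 11 at 0.5 M and 40 at 0.3 M (-1.56, and -0.86 with 16 added), and the interferon-inducible GTPase Iigp1 read 272 and 635. The Iigp1 difference of -0.92 passed 2-fold as deposited (-1.22), with quantile normalization (-1.13) and with loess (-1.17).

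**Figure D4:**
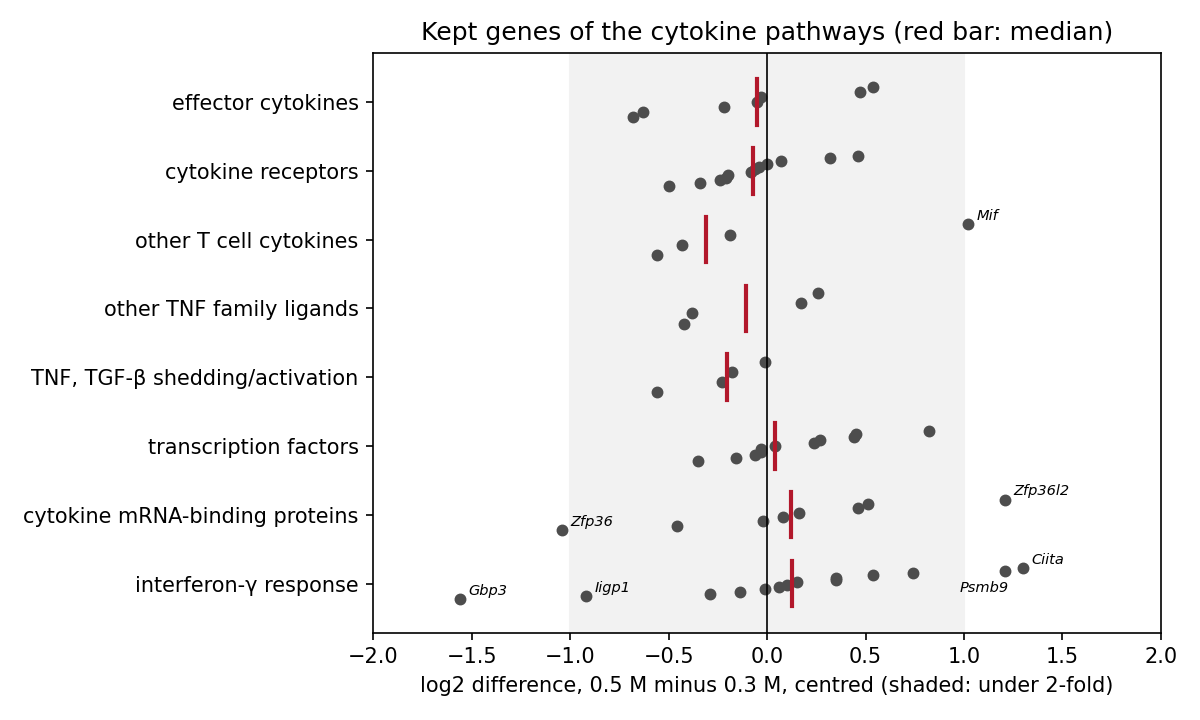
Log2 difference (0.5 M minus 0.3 M, centred) of each kept gene (points) in the effector cytokines and 7 related lists, with a red bar at each median and the zone under 2-fold shaded. Centred medians run from -0.31 for other T cell cytokines to 0.13 for interferon gamma response genes (-0.61 and -0.17 as deposited), and the points outside the shaded zone are Mif, Zfp36, Zfp36l2, Psmb9, Ciita and Gbp3.

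Macrophages and dendritic cells are also known sources of Tnf, Il10 and Tgfb1. Of 10 of their marker genes on the array, 7 had a value on both arrays and 3 were kept, with a median difference of 0.33. Their intensities, which weight probes by brightness, summed to 254 at 0.5 M and 433 at 0.3 M, and to 167 and 174 without Mrc1 (87 and 259). Adgre1 and Itgam had no value on either array, and Cd68 read 53 at 0.5 M and 50 at 0.3 M. B cell markers summed to 549 at 0.5 M and 381 at 0.3 M over 6 genes, and to 221 and 287 without Cd79b (328 and 94). Of the 3 kept B cell markers, Cd79b (2.10) and Blnk (63 and 26, 1.58) were past 2-fold higher, beside 5.24% of kept genes. Blnk was kept only through its 0.5 M value. Cd22 (126 and 225, -0.54) was lower at 0.5 M. The median of the 3 was 1.58, against 0.30 over the 5 measured on both arrays. Helper and regulatory T cell markers summed to 63 and 74 over 3 genes. NK cell markers summed to 253 and 156 over 3, mostly from Klra8 (244 and 151). Neutrophil markers summed to 47 and 58 over 4, of which S100a9 and Mpo had a value at 0.3 M alone. All these sums are of deposited, uncentred intensities, and an empty cell adds nothing. Centred medians over genes measured on both arrays were 0.16 (helper list, 3 genes), 1.07 (NK cells, 2) and 0.10 (neutrophils, 2). The part of such cells in the cytokine values was not tested, and fewer vesicles of a cell type cannot be told apart from less RNA in each.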

How the data were processed

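Total RNA of 2 vesicle fractions was amplified, labelled with Cy5 and hybridised to 1 array each, per the labels' protocols. The authors deposited 1 intensity per probe and array, linear and in whole numbers. The sources used here name no scanner, background correction or normalization. Empty cells were left without a value. Of 23473 probes, 20690 had 1 gene symbol, 0 several and 2783 none. Symbols came through Entrez identifiers for 20556 probes and accessions for 9, from a RefSeq table of GRCm38.p6, and 125 kept the array's symbol.

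Intensities were log2-transformed and centred on each array's median over shared probes, and probes of a gene were averaged (Python 3.11.15, numpy 2.4.6, pandas 2.3.3, loess by statsmodels 0.14.6 with span 0.3). The calculation was tested on simulated data with planted differences larger than those of the members and noise below the probe spread. That checks the arithmetic, and not how precise differences of the size seen here are. The number of arrays limits the precision. The cytokine genes and the 13 gene lists were chosen with earlier results of these data known. From each list of related genes, up to 4 kept genes with the largest absolute difference were named. Ifngr1, Ifngr2, Tgfbr3, Zfp36l1, Fasl, Cd8a, Cd3e, Prf1 and the other-cell markers named were picked after their values were seen. The genes most like Ifng were the 3 kept genes of like intensity at 0.3 M with the closest difference, passing over predicted and RIKEN names.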

Additional observations from a re-analysis of the deposited data

How the results depend on the processing

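Each difference was recomputed with the values as deposited, quantile normalization, loess, no filter on dim genes, a filter on both arrays, 16 added to each intensity, and the brightest probe per gene. Members at least 2-fold higher and at least 2-fold lower were 0 and 0 among kept members in each of these settings, and the median of kept members ran from -0.35 (as deposited) to -0.04 (no filter, or the filter on both arrays). Moved by as much as the probe SD of 0.55 was only Il2 with 16 added, from 0.88 to 0.33, a move equal to that SD. Of the members, 9 had the same sign under centring, as deposited, with quantile normalization and with loess, and Tnf, at 0.01 with centring, was -0.29 as deposited. The counts over all kept genes rested on the scaling. At least 2-fold higher and lower were 390 and 175 with centring (69.0% higher), 121 and 579 as deposited (17.3%), 242 and 288 with quantile normalization (45.7%), and 231 and 293 with loess (44.1%). They were 701 and 380 with no filter, 293 and 92 with the filter on both arrays, and 157 and 98 with 16 added. No paired analysis was possible because each fraction has 1 array. Signal limits the readings of Tnf, Il2 and Tgfb1 most.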

Other observations

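Several further cytokine genes had a value on a single array or none, and no difference can be given for them. Cd40lg, the ligand by which T cells help B cells, read 36 at 0.5 M and was empty at 0.3 M. Il9, Tnfsf10, Tnfsf13b and Tgfb3 also had a value at 0.5 M alone, between 5 and 7. Tnfsf4, the OX40 ligand, read 4 at 0.3 M and was empty at 0.5 M. Il6, Tnfsf18 and Eda had no value on either array. Among receptors, Tnfrsf1a, a receptor for TNF, read 16 at 0.3 M alone, while Csf2rb and Tgfbr1 had no value on either array.

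Some dim genes outside the level filter had large differences. Il24 read 16 at 0.5 M and 7 at 0.3 M (1.49), Jun 20 and 9 (1.45), the latent TGF-beta binding protein Ltbp4 15 and 7 (1.40), and Cd70 10 and 5 (1.30). With 16 added to each intensity these were 0.67 for Il24, 0.72 for Jun, 0.62 for Ltbp4 and 0.50 for Cd70, all under 2-fold. Il4 (12 at 0.5 M and 13 at 0.3 M) and Il5 (7 on both), cytokines of helper cells, were likewise under the filter.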
